A study of Mus musculus with 5 samples.

Results

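Integrins are receptors of an alpha and a beta subunit that tie the cell surface to the matrix outside and to the actin skeleton inside. Laminins are trimers of an alpha, a beta and a gamma chain that form the first network of a basement membrane, and several integrins bind them. In the embryonic heart, muscle, endocardium and epicardium each sit on such a membrane, and integrins that bind fibronectin and laminin are known to be needed for normal development of the mouse heart and vessels. The genes were chosen by symbol alone: Itga or Itgb followed by a digit, Itgad, Itgae, Itgal, Itgam, Itgav and Itgax, and Lama, Lamb or Lamc followed by digits. This took 40 of the 23279 named genes: 17 integrins expressed outside blood, 10 leukocyte and platelet integrins, 10 laminin chains, and 3 genes, Itgb1bp1, Itgb1bp2 and Itgb3bp, whose symbols begin with Itgb but which encode integrin-binding proteins.

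Transcript levels came from Affymetrix arrays of E10.5 mouse hearts, a stage at which the tube has looped and is forming chambers. There were 2 arrays of hearts whose genotype is labelled KO and 3 of hearts labelled Control. The series title names Lrrfip2, a partner of actin regulators, and asks about the response to low oxygen. The labels name no other allele, no strain, no Cre driver and no treatment, nor how the KO was made or whether the controls are wild type. Whether hearts were pooled is also not given, so p-values measure only the spread between these 5 samples. All values are log2 RMA levels, and differences are KO minus control.

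Lrrfip2 was at 6.36 and 6.22 in the KO arrays, against 7.33, 8.07 and 8.08 in the controls. The labels do not give the deleted part, so the probe set may lie outside it. Markers of heart muscle fitted the labelled tissue: all 18 were above the dim level of 4.44. Troponin T, Tnnt2, was at 12.40 and 12.19 in the KO arrays and at 12.29 to 12.31 in the controls. Of these 18 markers 13 were lower and 5 higher in KO, and 0 passed after adjustment in limma. Both KO arrays lay below every control for 7 and above every control for 1, against 13.1% and 8.18% of all genes tested. At an unadjusted p under 0.05 in limma 3 were lower (Des, Tnnc1 and Myh6) and 0 higher, against 5.49% and 3.29%. The KO arrays stood apart from each other, with a correlation of 0.986 over all probe sets, the lowest between any 2 of the 5 arrays. KO replicate 2 carried transcripts of liver and gut endoderm: the summed linear level of 18 measured markers was 8634 there and 651 in KO replicate 1, against 604 to 651 in the controls. KO replicate 1 had higher sums of myeloid and platelet markers. The sum over 19 macrophage and myeloid markers was 1179 there and 662 in KO replicate 2, against 640 to 691 in the controls. Not all of these markers rose: C1qa, C1qb, Cd68 and Adgre1 were not above the controls on that array. The 10 measured erythroid markers summed to 10792 in KO replicate 1 and 12306 in KO replicate 2, against 10303 to 17684 in the controls, and all 9 tested ones were lower on average in KO, with 0 at an unadjusted p under 0.05 in limma. For members that differed between the KO arrays the value without either array is given too.

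**Figure D1:**
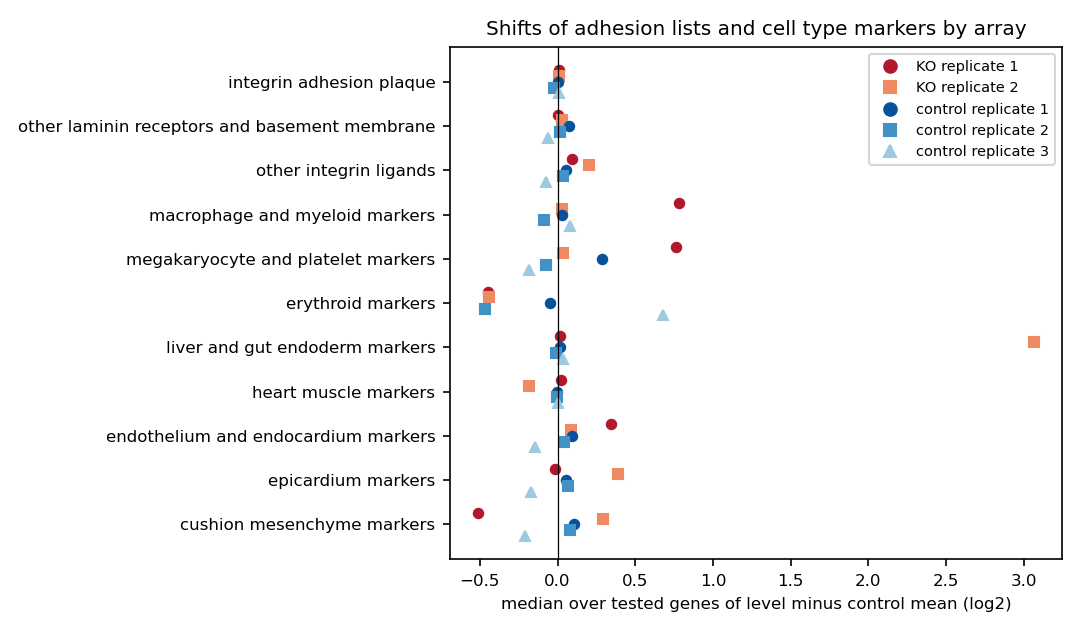
Shift of each gene list on each array, as the median difference from the control mean over its tested genes (log2, x axis), with 1 row per list and 1 point per array. The endoderm markers stood at 3.07 in KO replicate 2, and the macrophage and platelet markers at 0.78 and 0.76 in KO replicate 1, while the adhesion plaque list lay between -0.02 and 0.01 on all 5 arrays.

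The level of most integrin and laminin genes differed little between KO and control hearts. Of the 40 members, 28 lay above the dim level (the 40th percentile of the mean over the 5 arrays) and were tested, and 12 were not. Of the tested members 15 were higher and 13 lower in KO hearts, with a median log2 difference of 0.02, against -0.02 over all 13967 genes tested. No member passed an adjusted p of 0.05 in limma: 0 of 28 did, the percentage over all genes was also 0%, and the smallest adjusted p of a member was 0.369. At an unadjusted p under 0.05 in limma there were 2 members, Itgb8 and Itga5, both lower in KO. Over all genes tested 8.78% were that low in p, 5.49% with lower and 3.29% with higher levels in KO, so 2 of 28 is a share near the background. The same 2 members were the only tested ones whose KO and control arrays did not overlap, with 2 lower and 0 higher; the background was 13.1% lower and 8.18% higher. Without KO replicate 2 there were 9 members at an unadjusted p under 0.05 in limma, against 27.3% of all genes tested. Without KO replicate 1 there were 10 of the 28, against 17% of all genes tested. The background was higher in both fits than over all 5 arrays. The members' share lay above that background in both, and further above it without KO replicate 1. After adjustment, 5 members (Itga1, Itga3, Itga8, Itgav and Itgb8) passed without KO replicate 2, where 7.04% of all genes tested did, and 0 without KO replicate 1, where 0.0644% did. The members' share passing was thus above the background without KO replicate 2 and not without KO replicate 1. These fits borrow the spread of the control arrays for the 1 KO array that is left, and no test compared the shares.

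**Figure D2:**
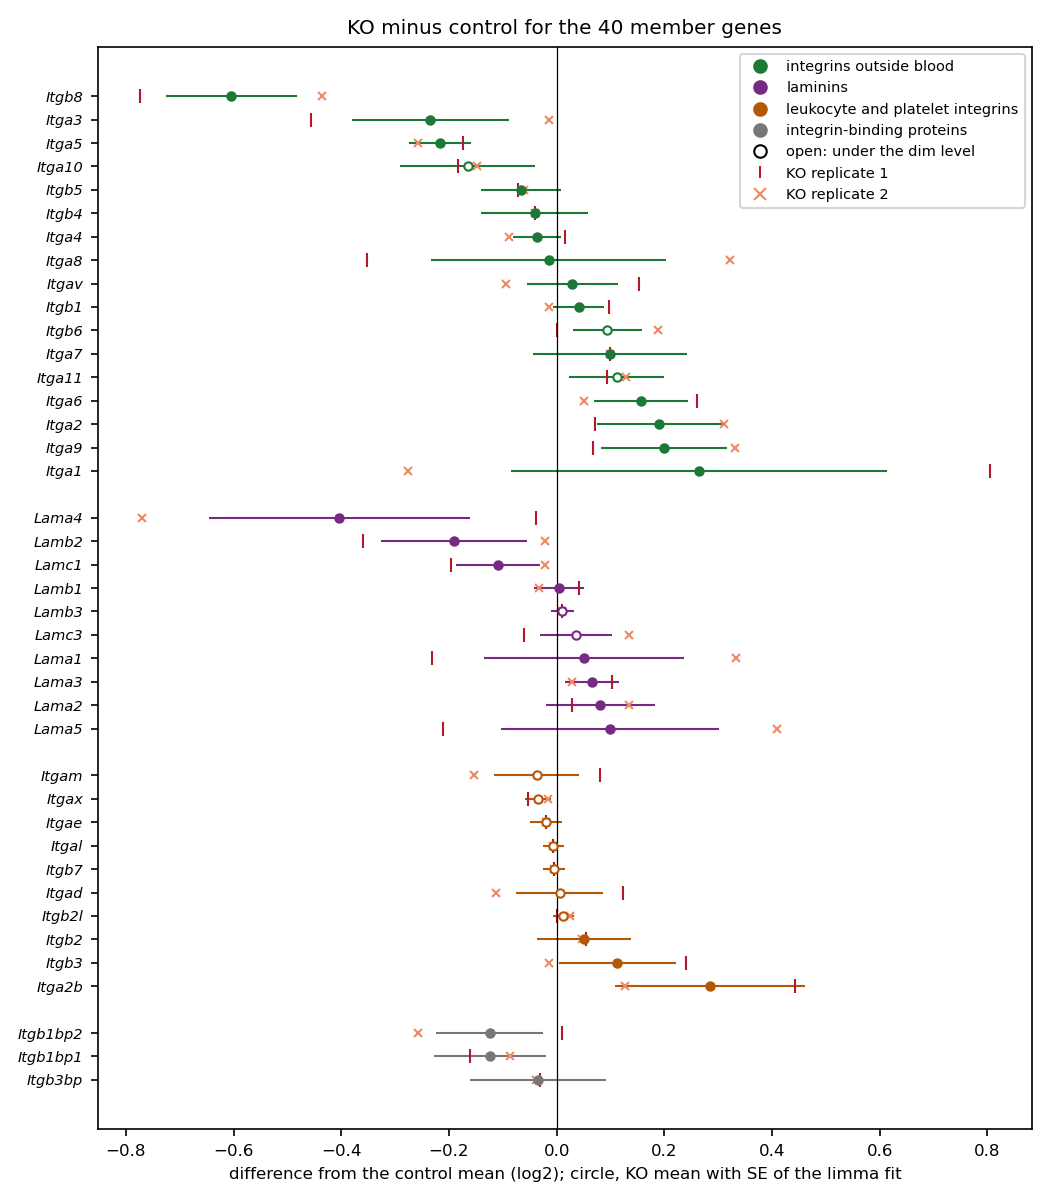
Difference from the control mean (log2, x axis) for the 40 members by group; circles give the KO mean with the SE of the limma fit, open circles are genes under the dim level, ticks are KO replicate 1 and crosses KO replicate 2. Itgb8 (-0.60) and Itga5 (-0.22) are the tested members with both KO arrays below every control, and for Itga1, Itga8, Lama1 and Lama5 the KO arrays lie on opposite sides of 0.

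The promoters of Itgb8 and Itga5 are shown because these were the only tested members with both KO arrays below every control. Itga10, which was under the dim level and not tested, also had both KO arrays below every control (4.15 and 4.19 in the KO arrays, against 4.23, 4.23 and 4.55 in the controls). Each line gives the 250 bases before the start site, 5′ to 3′ on the gene's own strand, from RefSeq on GRCm38.p6. Itgb8 lies at chr12:119238277-119238526 on the minus strand and Itga5 at chr15:103366792-103367041 on the minus strand. Capitals mark a CCAAT box (CCAAT) or a GC box (GGGCGG), read on both strands.
Itgb8: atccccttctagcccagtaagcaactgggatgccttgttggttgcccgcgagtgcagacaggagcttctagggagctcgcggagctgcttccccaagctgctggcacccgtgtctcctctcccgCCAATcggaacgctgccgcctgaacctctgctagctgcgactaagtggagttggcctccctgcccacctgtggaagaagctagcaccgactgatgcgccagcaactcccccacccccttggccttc
Itga5: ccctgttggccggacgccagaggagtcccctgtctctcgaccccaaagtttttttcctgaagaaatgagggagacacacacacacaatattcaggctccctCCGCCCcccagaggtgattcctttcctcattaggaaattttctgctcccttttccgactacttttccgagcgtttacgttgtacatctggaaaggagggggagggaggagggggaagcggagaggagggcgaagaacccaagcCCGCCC

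The Itgb8 window held 1 CCAAT box, 126 bases before the start, and 0 GC boxes. The Itga5 window held 2 GC boxes, 149 and 6 bases before the start, and 0 CCAAT boxes. Over 32851 promoter windows of the same length, 33.8% held a CCAAT box and 32.7% a GC box. Because the study concerns low oxygen, the core bound by hypoxia-inducible factors (ACGTG or GCGTG, both strands) was also searched, and neither window held it. It was present in 8 of 29 windows of the 26 members with a promoter in the table (27.6%), namely those of Itga2, Itga9, Itgax, Itgb5, Lamb1, Lamb3, Itgb1bp1 and Itgb3bp, against 38.6% of all windows. No motif overlapped another in the 2 windows shown.

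Itgb8 had the smallest p of the members. Its product pairs with the alpha v subunit, binds the latent form of transforming growth factor beta and helps to release the active factor. Itgb8 was at 6.21 and 6.55 in the KO arrays, against 6.90, 7.04 and 7.01 in the controls. Both KO arrays lay below every control, and KO replicate 1 was the lower of them. The mean was 6.38 ± 0.24 (SD, n = 2) in KO hearts and 6.98 ± 0.07 (SD, n = 3) in control hearts. KO hearts were thus 1.52-fold lower, a log2 difference of -0.60 ± 0.12 (SE), with an unadjusted p of 0.00754 and an adjusted p of 0.369 in limma. It was the only member of the 40 with a fold of at least 1.5. When any 1 array was left out the difference ranged from -0.77 to -0.44. In whole hearts, fewer cells that make a transcript and less of it per cell cannot be told apart.

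Itgav, the common subunit of several receptors for vitronectin, fibronectin and latent transforming growth factor beta, was at 8.33 and 8.09 in the KO arrays, against 8.18 on each of the 3 control arrays. The KO arrays lay on either side of the controls, and the log2 difference was 0.03 ± 0.08 (SE). Among its other beta partners, Itgb5 differed by -0.07 and Itgb6, which was under the dim level, by 0.09. Of the genes for the growth factor itself, Tgfb1 was at 7.52 and 7.49 in the KO arrays, against 7.35 to 7.47 in the controls, so the groups did not overlap, with a log2 difference of 0.10. The groups overlapped for Tgfb2 (0.02) and Tgfb3 (0.13). These 3 genes were chosen after their values were seen.

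Itga5 encodes the alpha subunit of the main fibronectin receptor, whose loss in the mouse causes death in mid-gestation with vascular defects. Its level was 7.89 and 7.81 in the KO arrays, against 8.02, 8.04 and 8.14 in the controls. The groups did not overlap, although the nearest KO and control arrays were close together. KO hearts were 1.16-fold lower, a log2 difference of -0.22 ± 0.06 (SE), with an unadjusted p of 0.0198 and an adjusted p of 0.473 in limma. Without KO replicate 2 the unadjusted p in limma was 0.0896, with a log2 difference of -0.17. The partner subunit Itgb1, shared by most matrix-binding integrins, was at 9.99 and 9.88 in the KO arrays, against 9.89 on each of the 3 controls, a log2 difference of 0.04 ± 0.05 (SE). Fibronectin, Fn1, a ligand chosen after its values were seen, was at 11.04 and 11.11 in the KO arrays and at 10.80 to 11.06 in the controls.

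**Figure D3:**
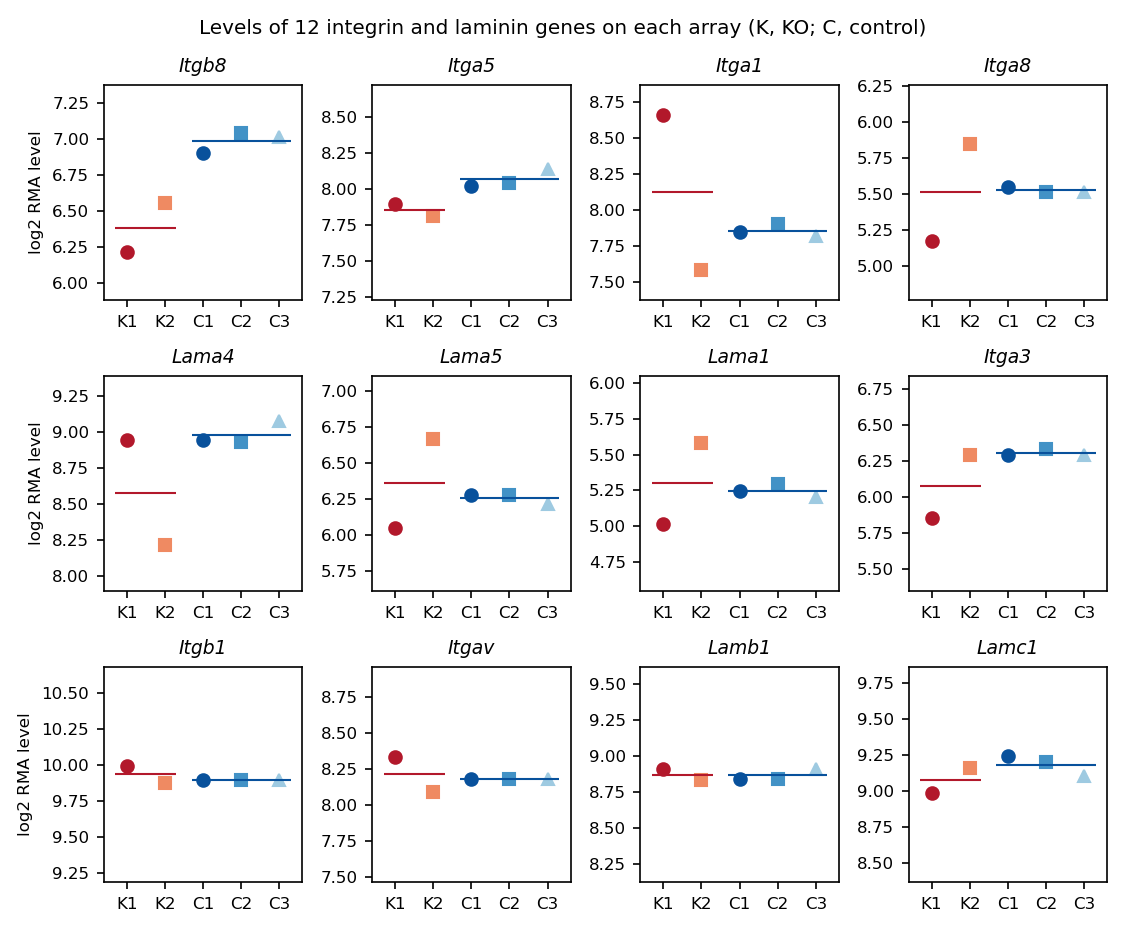
Log2 RMA level (y axis, each panel 1.5 units tall) of 12 members on the 2 KO arrays (K1, K2) and 3 control arrays (C1 to C3), with lines at the group means. Itgb8 and Itga5 are lower on both KO arrays, Itga1, Itga8, Lama1 and Lama5 have 1 KO array above and 1 below all controls, and Lamb1 and Lamc1 overlap between the groups.

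The collagen receptor subunit Itga1 differed most between the KO arrays. It was at 8.66 in KO replicate 1 and 7.58 in KO replicate 2, against 7.85, 7.90 and 7.82 in the controls. The KO arrays were 2.11-fold apart, 1 above and 1 below all controls, while the controls spanned 0.08 on the log2 scale. The log2 difference over all arrays was 0.26 ± 0.35 (SE), with an adjusted p of 0.74 in limma. It was 0.80 without KO replicate 2 and -0.28 without KO replicate 1, so its direction depends on which KO array is used. KO replicate 1 also had a higher sum of endothelial and endocardial markers. The summed level over 15 genes was 4982 there and 3898 in KO replicate 2, against 3417 to 4023 in the controls. Not all of these markers rose on KO replicate 1. Eng (8.33) and Nfatc1 (6.69) were below every control there, and Tek, Tie1 and Sox18 lay within the control range. The part of endothelial cells in the Itga1 level was not tested. Of the other collagen receptor subunits, Itga2 differed by 0.19, and Itga10 (-0.17) and Itga11 (0.11) were under the dim level.

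Laminin receptor subunits showed no common direction. Itga6, which with Itgb1 forms a laminin receptor and with Itgb4 the receptor of hemidesmosomes, was at 9.66 and 9.45 in the KO arrays, against 9.45, 9.32 and 9.42 in the controls. KO replicate 1 was above every control and KO replicate 2 lay within their range, and the log2 difference was 0.16 ± 0.09 (SE). It was 0.05 without KO replicate 1 and 0.26 without KO replicate 2. Itga3, an epithelial laminin receptor subunit, was at 5.85 in KO replicate 1 and 6.29 in KO replicate 2, against 6.29, 6.33 and 6.29 in the controls. Here KO replicate 1 alone was low, and the log2 difference was -0.23 ± 0.15 (SE). It was -0.01 without KO replicate 1 and -0.46 without KO replicate 2. Itga7, the laminin receptor subunit of muscle, differed by 0.10 and Itgb4 by -0.04.

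Itga4 pairs with Itgb1 to bind fibronectin and the adhesion molecule Vcam1, and is known in the mouse to be needed for the epicardium. Its level was 7.54 and 7.43 in the KO arrays, against 7.52 on each of the 3 controls, a log2 difference of -0.04. Its relative Itga9, which binds tenascin and Vcam1, differed by 0.20 ± 0.12 (SE). The nephronectin receptor subunit Itga8 was at 5.17 in KO replicate 1 and 5.85 in KO replicate 2, against 5.54, 5.51 and 5.51 in the controls. The KO arrays thus lay on opposite sides of all controls, 1.6-fold apart, and the log2 difference over all arrays was -0.02. It was 0.32 without KO replicate 1 and -0.35 without KO replicate 2.

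Among the laminin chains, Lama1, Lama4 and Lama5 differed between the KO arrays, while Lamb1 and Lamc1 overlapped between KO and control. Of 10 chains 8 were tested, 5 higher and 3 lower, with 0 at an unadjusted p under 0.05 in limma and a median log2 difference of 0.03. Lama4, the alpha chain of the vascular basement membrane and of muscle, was at 8.95 in KO replicate 1 and 8.22 in KO replicate 2, against 8.95, 8.93 and 9.08 in the controls. Only KO replicate 2 was low. The log2 difference was -0.40 ± 0.24 (SE), with an adjusted p of 0.57 in limma. It was -0.04 without KO replicate 2 and -0.77 without KO replicate 1.

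Lama5, the alpha chain of many epithelial and vascular basement membranes, was at 6.05 in KO replicate 1 and 6.67 in KO replicate 2, against 6.28, 6.28 and 6.22 in the controls. Lama1, the alpha chain of the earliest embryonic basement membranes, was at 5.02 in KO replicate 1 and 5.58 in KO replicate 2, against 5.25, 5.29 and 5.20 in the controls. Both genes were above all controls in KO replicate 2 and below them in KO replicate 1, the opposite order to Lama4. The log2 differences were 0.10 ± 0.20 (SE) for Lama5 and 0.05 ± 0.19 (SE) for Lama1. Without KO replicate 1 they were 0.41 and 0.33, and without KO replicate 2 they were -0.21 and -0.23. KO replicate 2 also carried the endoderm transcripts. Of the epithelial genes on that marker list, Epcam was at 5.52 there and 4.37 in KO replicate 1, against 4.79 in the controls. Other marker lists had the same order. Cushion mesenchyme markers had a median shift of -0.51 in KO replicate 1 and 0.29 in KO replicate 2, against -0.21 to 0.11 in the controls. Epicardium markers stood at -0.02 and 0.39, against -0.17 to 0.07, and endoderm markers at 0.01 and 3.07. The part of any of these cells in the laminin levels was not tested. The muscle chain Lama2 differed by 0.08 and the epithelial chain Lama3 by 0.07.

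Lamb1 and Lamc1 encode the beta and gamma chains of the most widespread trimers. Lamb1 was at 8.90 and 8.83 in the KO arrays, against 8.84, 8.84 and 8.91 in the controls, a log2 difference of 0.01 ± 0.05 (SE). Lamc1 was at 8.98 and 9.16 in the KO arrays, against 9.24, 9.20 and 9.10 in the controls, a log2 difference of -0.11 ± 0.08 (SE). In both genes the groups overlapped. Lamb2, found in muscle and kidney basement membranes, differed by -0.19 ± 0.14 (SE), with KO replicate 1 the lowest array at 6.93, and by -0.02 without that array. Lamb3, the beta chain of epithelial laminin, and Lamc3 were under the dim level.

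Over all tested members, 7 of 28 had 1 KO array above and the other below all 3 controls: Itga1, Itga4, Itga8, Itgav, Itgb1, Lama1 and Lama5. Over all genes tested this share was 11.5%. For 3 of these genes, Itga4, Itgav and Itgb1, the 3 controls carried the same value and the largest distance of a KO array from it was 0.15, in Itgav. Of the tested members 5 had KO arrays at least 0.5 apart on the log2 scale, a limit chosen after the values were seen: Itga1, Itga8, Lama1, Lama4 and Lama5. The share over all genes tested was 11.9%. No test was made of these counts. Exact ties were common in the deposited values: 17 of the 28 tested members had the same value on at least 2 arrays, as had 54.8% of all genes tested. An SD of 0 in such a group does not measure the spread between hearts.

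**Figure D4:**
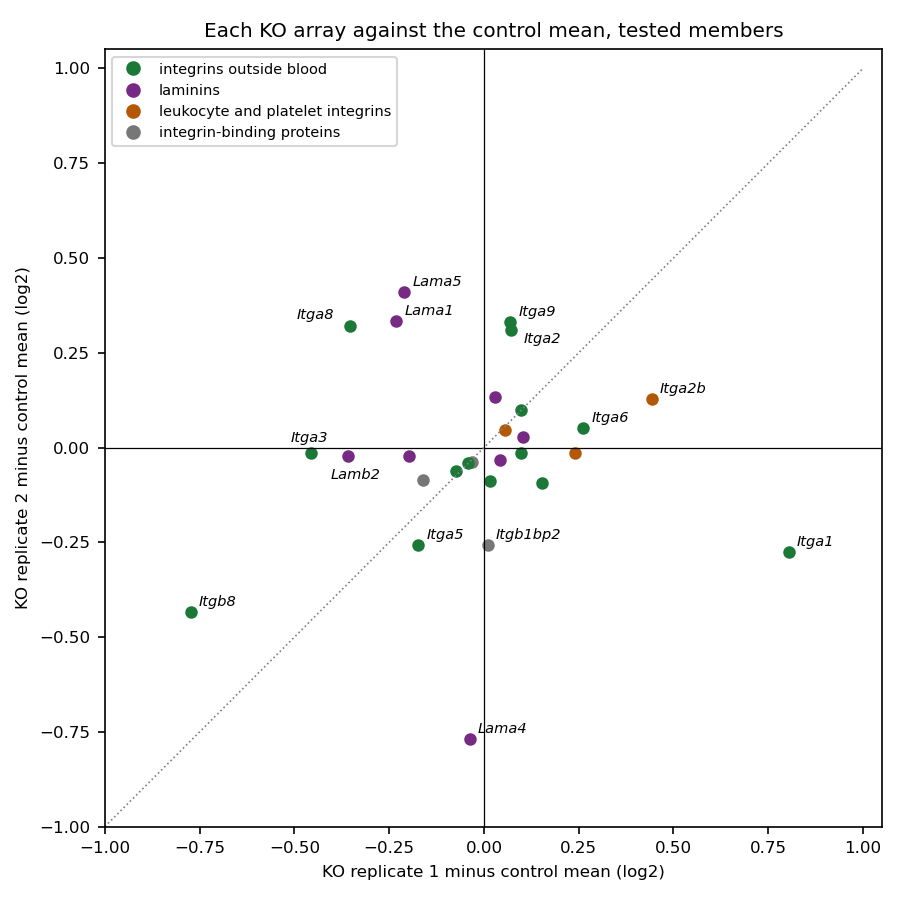
KO replicate 1 minus the control mean (log2, x axis) against KO replicate 2 minus the control mean (log2, y axis) for the 28 tested members, coloured by group; the dotted line marks equal differences. Itgb8 and Itga5 lie in the lower left, Itga8, Lama1 and Lama5 in the upper left, Itga1 in the lower right and Lama4 near the vertical axis at -0.77.

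Leukocyte integrins were near or under the dim level on all arrays. Of 8 such genes only Itgb2, the beta subunit shared by the leukocyte receptors, was tested: it was at 4.69 and 4.68 in the KO arrays, against 4.73, 4.68 and 4.49 in the controls. Itgal, Itgam, Itgax and Itgad, its alpha partners, and Itgae, Itgb7 and Itgb2l stood between 2.89 and 4.40 on every array. Their log2 differences lay between -0.04 and 0.01, and those of KO replicate 1 alone between -0.05 (Itgax) and 0.12 (Itgad). On that array the macrophage signal adaptor gene Tyrobp was at 7.65, against 5.09 in KO replicate 2 and 4.85 to 5.09 in the controls. Fcer1g, Laptm5 and Coro1a were also above all controls there. Other macrophage genes were not: C1qa was at 4.85, against 5.13 to 5.42 in the controls. C1qb (5.29) and Cd68 (6.45) lay within the control range, and Adgre1 was at 4.15 on all 5 arrays. Of 20 macrophage and myeloid markers, 19 were measured and 8 of these were under the dim level; 11 were tested, 9 of them higher in KO, with 0 at an unadjusted p under 0.05 in limma.

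Platelet integrins were higher in KO replicate 1. Itga2b, the alpha subunit of the platelet fibrinogen receptor and an early marker of blood progenitors, was at 6.01 and 5.69 in the KO arrays, against 5.69, 5.31 and 5.69 in the controls. Its partner Itgb3, which also pairs with Itgav on vessels, was at 6.75 and 6.50 in the KO arrays, against 6.62, 6.42 and 6.50 in the controls. For both genes KO replicate 1 was above all controls and KO replicate 2 lay within their range. The log2 differences were 0.28 ± 0.18 (SE) and 0.11 ± 0.11 (SE), with adjusted p-values of 0.57 and 0.653 in limma. Without KO replicate 1 they were 0.13 for Itga2b and -0.01 for Itgb3, and without KO replicate 2 they were 0.44 and 0.24. Of 14 megakaryocyte and platelet markers 12 were measured and 2 of these were under the dim level. The summed level was 1350 in KO replicate 1 and 721 in KO replicate 2, against 622 to 899 in the controls. Not all of these markers rose on KO replicate 1: Ppbp (7.49), Gp5 (4.85) and Nfe2 (6.19) lay within the control range. The part of platelets or their precursors in the 2 integrin levels was not tested.

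The 3 integrin-binding proteins were slightly lower on average. Itgb1bp2, or melusin, a muscle protein that binds the tail of Itgb1, was at 8.50 and 8.23 in the KO arrays, against 8.48, 8.43 and 8.56 in the controls. KO replicate 2 alone was below the controls, and the log2 difference was -0.12 ± 0.10 (SE). It was 0.01 without KO replicate 2 and -0.26 without KO replicate 1. Heart muscle markers had a median shift of -0.18 in KO replicate 2 and 0.02 in KO replicate 1. Not all of them were lowest on KO replicate 2: Des (9.82) and Nkx2-5 (7.14) were lowest on KO replicate 1. The part of heart muscle cells in the Itgb1bp2 level was not tested. Itgb1bp1, another binder of the Itgb1 tail, differed by -0.12, and Itgb3bp, also known as a centromere protein, by -0.03.

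The adhesion plaque couples integrins to actin. Of its 26 tested genes, 12 were higher and 14 lower, with a median log2 difference of -0.03; at an unadjusted p under 0.05 in limma there were 2 higher and 2 lower, against 3.29% higher and 5.49% lower over all genes tested, and 0 passed after adjustment. Lims2, an adaptor of the integrin-linked kinase complex, was at 6.51 and 6.04 in the KO arrays, against 5.33, 5.20 and 5.39 in the controls. Its log2 difference was 0.97 ± 0.17 (SE), with an adjusted p of 0.355 in limma. The docking protein gene Bcar1 was at 8.10 on both KO arrays, against 7.43, 7.47 and 7.75 in the controls, a log2 difference of 0.55 ± 0.12 (SE). Both genes were higher on each KO array than on any control. Tensin 1, Tns1, differed by -0.29 and talin 2, Tln2, by -0.25, and both were lower on each KO array than on any control. Talin 1, Tln1 (-0.04), and the integrin-linked kinase, Ilk (-0.01), which were chosen after their values were seen, overlapped between the groups.

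Partners of laminin in the basement membrane were level as a list, with 7 higher and 7 lower of 16 tested and 2 equal on all arrays. Frem1, an extracellular protein of embryonic basement membranes, was at 6.79 and 6.74 in the KO arrays, against 7.37, 7.31 and 7.16 in the controls. Both KO arrays were below all controls, and the log2 difference was -0.52 ± 0.08 (SE), with an unadjusted p of 0.00233 and an adjusted p of 0.354 in limma. It was the only gene of this list at an unadjusted p under 0.05 in limma, against 8.78% of all genes tested. The laminin receptor gene Bcam differed by -0.14, Frem2 by 0.22 and Col18a1 by -0.25.

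Of 22 other integrin ligands tested, 18 were higher in KO. Over all 13967 genes tested 6104 were higher. The list's median log2 difference was 0.16, against -0.02 over all genes tested. Only Ccn2, higher in KO, had an unadjusted p under 0.05 in limma, where 3.29% of all genes tested were higher at that level. After adjustment 0 passed, as over all genes tested. The list's median was 0.21 without KO replicate 1 and 0.10 without KO replicate 2. Ccn2, a matricellular protein that binds integrins, was at 9.20 and 8.42 in the KO arrays, against 7.70, 8.13 and 7.65 in the controls, a log2 difference of 0.98 ± 0.30 (SE). Icam2 (0.51), a ligand of leukocyte integrins on endothelium, Egfl7 (0.42), a factor made by endothelium, and Icam1 (0.24) were higher on each KO array than on any control. Of the 14 tested endothelial and endocardial markers 10 were higher in KO. Kdr (0.60), Flt1 (0.64), Pecam1 (0.52), Sox17 (0.40) and Cdh5 (0.20) were likewise higher on each KO array than on any control, while Nfatc1 (-0.35) was lower on each. Over all genes tested, the groups did not overlap in 8.18% with higher and 13.1% with lower levels in KO. The part of endothelial cells in the ligand levels was not tested. The blood plasma proteins on the list were high in KO replicate 2 alone: vitronectin, Vtn, was at 7.44 there and 3.86 in KO replicate 1, against 3.72 to 3.90 in the controls. Fibrinogen beta, Fgb, was at 8.46 in KO replicate 2 and 3.47 in KO replicate 1, against 3.47 to 3.60 in the controls. Both are made by liver, and Fgb is itself one of the endoderm markers summed above; the part of endoderm in the Vtn level was not tested.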

How the data were processed

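Total RNA of embryonic hearts (20 ng per sample, 2 KO and 3 control) was labelled for Affymetrix arrays, per the labels' protocols. The authors deposited log2 levels made with Affymetrix Expression Console and RMA, per the submitters' processing notes; their versions are not stated, and no scanner values were used. Of 24479 probe sets, the platform annotation gives 1 symbol for 23281, several for 0 and none for 1198; 23156 of the named sets were found in a RefSeq table (GRCm38.p6), which gave current symbols and promoters. The brightest set of a gene was kept. Genes whose mean was under the 40th percentile (4.44) were left out, leaving 13967; values of untested members come from the fit without this filter. KO was compared with control by two-sided moderated tests in limma 3.58.1 under R 4.3.3, with no covariate, adjusted by the Benjamini-Hochberg method over all genes tested, threshold 0.05. The code was tested on simulated data. Precision is limited by having 5 arrays.

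The members and lists were chosen with earlier results of these data known. Values on every array are given for members with an unadjusted p under 0.05 (at most 12), the highest mean of each role group, KO arrays at least 1 apart (at most 4) or a fold of at least 1.5 (at most 6), 13 genes in all; up to 4 genes of smallest p are named from each adhesion list. Array values of Itga3, Itga8, Itga10, Lama1, Lama5 and Itga2b were added after they were seen. A summed level adds linear values over a list's measured genes. Alternatives concerned the filter, normalization, probe set averaging, the variance prior, array weights, each array left out, and the grouping of Itgb3 and Itga4.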

Additional observations from a re-analysis of the deposited data

How the results depend on the processing

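Itgb8 and Itga5 were the members at an unadjusted p under 0.05 in limma under no filter, a filter at the 20th percentile, renormalization and centring. The same 2 were at that level with trend and robust, with array weights and without any 1 control. Averaging of probe sets could not change this, because each member has 1 probe set. When an array was left out, members at that level numbered 2 to 10 and members passing after adjustment 0 to 5. Over all genes, 0 to 983 passed after adjustment and 772 to 3818 had an unadjusted p under 0.05; array weights gave 783. Of the members followed in these fits, Itga1 (-0.28 to 0.80), Itga8 (-0.35 to 0.32) and Itgav (-0.094 to 0.15) turned direction without KO replicate 1. So did Itgb1 (-0.015 to 0.097), Itgb3 (-0.014 to 0.24) and Lamb1 (-0.032 to 0.042). Lamb1 also turned without control replicate 1 and without control replicate 2 (-0.0065 in each). Itgb2, at 0.051 over all arrays, turned without control replicate 3 (-0.022). Lama1 (-0.23 to 0.33), Lama5 (-0.21 to 0.41), Itga4 (-0.089 to 0.016) and Itgb1bp2 (-0.26 to 0.0097) turned without KO replicate 2. Several of these differences were near 0 over all arrays, such as -0.015 for Itga8 and 0.029 for Itgav. The cause was not tested. Group medians ranged from -0.028 to 0.042 (integrins outside blood), -0.12 to 0.034 (laminins) and 0.047 to 0.24 (leukocyte and platelet integrins) when an array was left out. For the leukocyte and platelet group a filter at the 20th percentile, which admits more leukocyte genes, gave -0.0055. Moving Itgb3 or Itga4 between groups moved no median beyond the spread between arrays. No paired analysis was possible because the groups share no replicate numbers in the labels. With 2 KO arrays that stand apart, small changes could not be detected.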
